A study of Homo sapiens with 42 samples.

Results

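The genes described here are 42 genes of mitosis and of the G2/M stage of the cell cycle, chosen by symbol from a fixed list out of 50648 genes that the count tables of 7 cell lines share. All 42 were found in every table, and all 42 passed the filter on low counts in each line. The RNA came from human lines of acute lymphoblastic leukaemia (ALL): CEM and DND41 are of T-cell origin, while Nalm6, SUPB15, RS411, REH and 697 are B-cell precursor lines. In each line, 3 libraries were from cells exposed to 1 IU/ml L-asparaginase for 4 h and 3 from untreated cells, 42 libraries in all. L-asparaginase, used against this leukaemia, hydrolyses asparagine in the medium and, more slowly, glutamine. All cells grew in RPMI-1640 medium with serum, glutamine and antibiotics. The series design describes 3 independent experiments a line, and n = 3 in every group. The columns of 697 carry numbers and those of the other lines the letters A, B and C, and libraries are named by these.

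Cells enter mitosis when cyclin B switches on the kinase CDK1, helped by CDC25 phosphatases and the kinases PLK1 and AURKA. The spindle checkpoint then holds the anaphase-promoting complex (APC/C) until every kinetochore is attached, after which CDC20 directs the APC/C to destroy cyclin B and securin, and kinesins and midzone proteins complete the division. Most of these genes are transcribed late in the cell cycle through promoter elements called the cell cycle genes homology region (CHR), bound by the DREAM and MuvB complexes, and the CCAAT box, bound by NF-Y, so their RNA follows the share of cells in G2 and mitosis.

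Promoters of 4 members are printed because these genes carry the results: CENPA had the largest mean rise, PLK1 was among the kinases that rose, CDC20 differed most between lines, and PTTG1 had the largest mean fall. Each is a RefSeq window of 300 bases on GRCh38.p14, from 250 bases before to 50 bases after the annotated start, on the plus strand. CENPA lies at chr2:26785806-26786105, PLK1 at chr16:23678639-23678938, CDC20 at chr1:43358731-43359030 and PTTG1 at chr5:160421660-160421959. Capitals mark the usual CHR motif TTTGAA, its variant form TTCGAA, and the CCAAT box. Elements on the other strand are marked too: there the usual CHR motif reads TTCAAA, the variant reads the same on both strands, and the box reads ATTGG.
CENPA: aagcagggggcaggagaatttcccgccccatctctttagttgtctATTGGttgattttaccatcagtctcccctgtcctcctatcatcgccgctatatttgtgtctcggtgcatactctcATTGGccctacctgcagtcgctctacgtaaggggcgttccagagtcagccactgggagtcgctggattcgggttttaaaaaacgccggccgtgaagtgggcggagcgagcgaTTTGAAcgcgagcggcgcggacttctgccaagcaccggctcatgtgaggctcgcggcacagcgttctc
PLK1: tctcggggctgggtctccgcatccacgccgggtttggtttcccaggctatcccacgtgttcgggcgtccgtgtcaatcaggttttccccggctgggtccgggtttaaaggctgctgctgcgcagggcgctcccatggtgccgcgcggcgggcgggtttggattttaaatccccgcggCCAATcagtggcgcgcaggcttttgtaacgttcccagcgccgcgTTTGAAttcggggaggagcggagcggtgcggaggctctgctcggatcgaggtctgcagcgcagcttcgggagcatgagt
CDC20: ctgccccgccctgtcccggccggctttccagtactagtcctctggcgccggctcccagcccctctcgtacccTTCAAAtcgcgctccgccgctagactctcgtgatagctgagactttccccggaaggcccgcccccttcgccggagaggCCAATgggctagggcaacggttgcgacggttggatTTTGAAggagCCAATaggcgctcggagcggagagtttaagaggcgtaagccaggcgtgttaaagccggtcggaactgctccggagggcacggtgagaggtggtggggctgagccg
PTTG1: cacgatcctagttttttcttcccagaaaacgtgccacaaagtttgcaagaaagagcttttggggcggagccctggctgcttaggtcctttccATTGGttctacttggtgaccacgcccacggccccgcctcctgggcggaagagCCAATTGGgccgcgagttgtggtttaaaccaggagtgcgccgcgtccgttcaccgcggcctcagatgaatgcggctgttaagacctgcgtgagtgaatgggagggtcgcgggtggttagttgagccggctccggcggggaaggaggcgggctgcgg
In CENPA the CHR letters began 18 bases before the start, and in PLK1 29 bases before it with a CCAAT box 73 bases before. CDC20 held the CHR letters at 178 and 65 bases and CCAAT at 100 and 55 bases before its start. PTTG1 held 3 CCAAT matches, a pair of which overlap as the run CCAATTGG, and no CHR match in this window.

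Of the 42 members, 35 had a promoter entry in the RefSeq table; AURKA, TTK, BUB3, UBE2C, BIRC5, TPX2 and FOXM1 had none. TTTGAA occurred in 25 of the 35 (71.4%), against 15.2% of all 35116 promoters of the same length, and TTCGAA in 3 (8.57%), against 1.45%. CCAAT occurred in 27 (77.1%), against 34.6% of all promoters, and 21 (60.0%) held either CHR form together with CCAAT, against 6.38%. Among 96 matches in the members, 1 CHR match overlapped a CCAAT match. The C/EBP-ATF element TGATGNAA, to which the amino acid stress factor ATF4 binds, was in 0 of the 35 member promoters and in 3.62% of all promoters. Either CHR form stood in 10 of the 13 promoters of members that rose in the mean of the lines, in 4 of the 5 that fell and in 12 of the 17 others. The letters were thus present in members of every kind of response, and a match describes the sequence only.

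Total counts per library lay between 15.07 and 77.14 M (mega counts). The first untreated library of every line (A, or 1 in 697) had the lowest share of counts in 5 abundant small noncoding RNAs, from 3.354% in 697 to 9.837% in CEM, while the highest share of a library was 17.82%. The gap was small in some lines. CEM had 9.883% in untreated B, DND41 had 5.633% in untreated A and 5.773% in L-asparaginase A, and REH had 9.48% and 9.774% in these. In every line the first untreated library also had the highest untreated value of CENPF and of MKI67, long transcripts of a kinetochore protein and of the Ki-67 proliferation marker. The most extreme was 697 untreated 1: its 42 members summed to 11138 CPM (read counts scaled to a common library total), against 6159 and 5707 CPM in untreated 2 and 3, and CENPF stood at 2373 CPM, against 688 and 786 CPM. An earlier analysis of these files had set apart the first untreated library in 5 lines (697, DND41, Nalm6, RS411 and SUPB15). It had also set apart 3 treated libraries as holding traces of other cells' transcripts, SUPB15 L-asparaginase C, REH L-asparaginase A and RS411 L-asparaginase B. The main counts are also given without them where they move by over 1.5 times, and so are some of the calls. T-lineage markers (6 genes) summed to at most 1.898 CPM in the B lines and to at least 804.4 CPM in the T lines, and the 6 B-lineage markers to at least 774.3 CPM in the B lines. The 1.898 CPM was that of RS411 L-asparaginase B, while SUPB15 L-asparaginase C and REH L-asparaginase A had T-lineage sums of 0 CPM. DND41 had B-lineage sums of 675.5 to 934.7 CPM with L-asparaginase and 648.1 to 1064 CPM untreated, nearly all from CD79A, with PAX5 at 0. Whether the small RNA share plays a part in the results was not tested.

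Averaged over the 7 lines, 15 of the 42 members rose and 7 fell after L-asparaginase, against 17.6% of all 20983 genes tested that rose and 19.4% that fell. CENPA, the histone variant that marks centromeres, rose most. The kinases AURKA and PLK1 and the ubiquitin ligase component CCNF followed, and the largest fall was that of PTTG1 (securin), the inhibitor of the protease that separates sister chromatids. The median of the members was 0.06 on the log2 scale, against -0.017 for all genes. Without the first untreated libraries of 5 lines, 20 members rose and 4 fell, with a median of 0.13, and 19.9% of all genes rose and 19.9% fell. All counts are from edgeR's quasi-likelihood test with Benjamini-Hochberg adjustment over all genes tested, at an adjusted p under 0.05. For the mean of the lines, standard error (SE) and p rest on the spread between libraries of a group. They do not measure the spread between lines. RNA of a whole culture cannot tell fewer cells in mitosis from less RNA per cell.

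**Figure D1:**
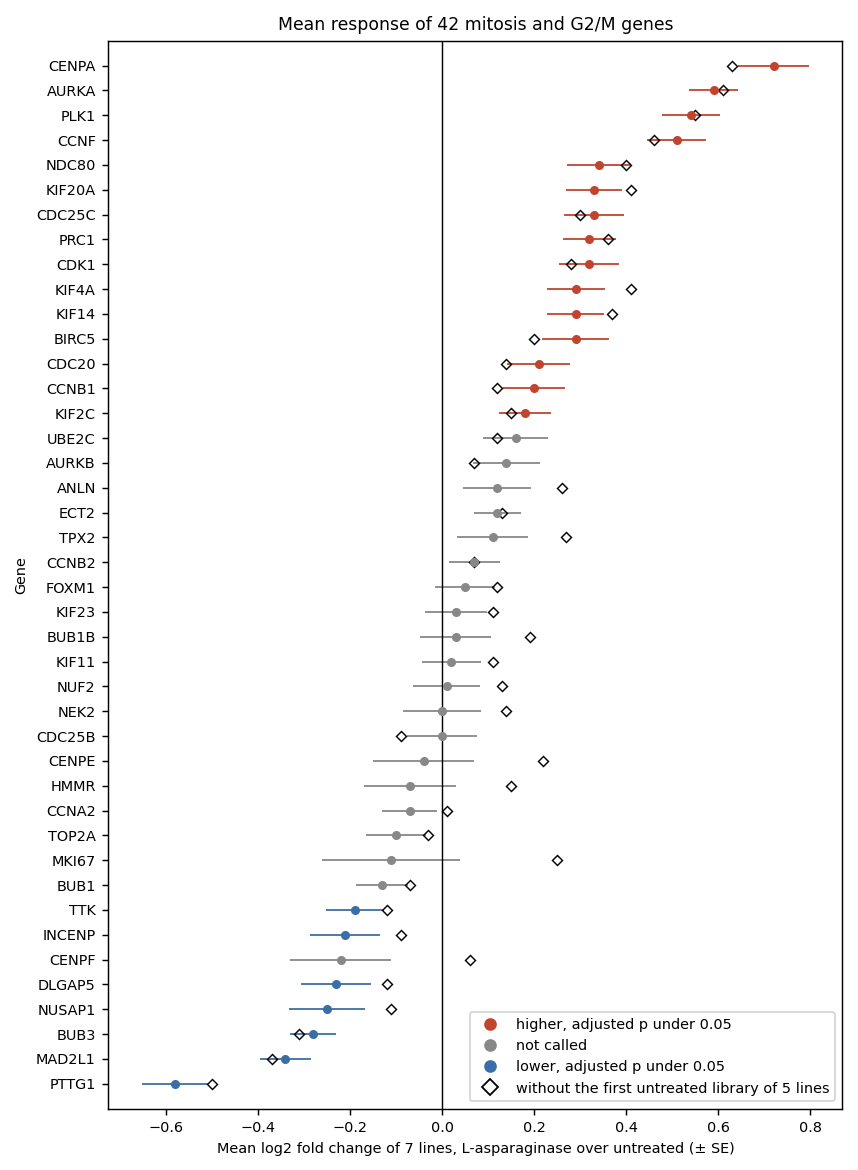
Mean log2 fold change of the 7 lines, L-asparaginase over untreated (x axis, points with SE), for each of the 42 genes (y axis), coloured by the call. Open diamonds give the value without the first untreated library of 5 lines: CENPA, AURKA, PLK1 and CCNF stay at the top and PTTG1, MAD2L1 and BUB3 at the bottom, while MKI67, CENPF and CENPE lie further right without these libraries.

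Among the cyclins, CDK1 and its phosphatases, 4 of 7 members rose in the mean and 0 fell. CCNF (cyclin F) rose 1.42-fold, a log2 change of 0.51 ± 0.064 (SE), with adjusted p = 3.4e-08 by edgeR's quasi-likelihood test, and its estimate was above 0 in all 7 lines. The phosphatase CDC25C rose by 0.33 ± 0.065 and CDK1 by 0.32 ± 0.065 on the log2 scale. Cyclin B1 (CCNB1) rose by 0.20 ± 0.068 (adjusted p = 0.021), a call lost without the first untreated libraries (0.12, adjusted p = 0.088) and without the 3 treated libraries set apart (0.18, adjusted p = 0.060). The values of CCNB2, CCNA2 and CDC25B were 0.07, -0.07 and 0.00 and did not pass the test.

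Of the 6 mitotic kinases, AURKA and PLK1 rose and TTK fell. AURKA, which builds the spindle poles, rose 1.51-fold (0.59 ± 0.053, adjusted p = 1.8e-11, edgeR). PLK1, which acts from mitotic entry to cytokinesis, rose 1.45-fold (0.54 ± 0.063, adjusted p = 1.1e-08). The log2 estimates of both were above 0 in all 7 lines. In the joint model AURKA ran from 0.06 in CEM to 0.93 in Nalm6, and PLK1 from 0.08 in DND41 to 1.17 in Nalm6. TTK, the checkpoint kinase also called MPS1, fell by 0.19 ± 0.063 (adjusted p = 0.017), but the call was lost without SUPB15 (-0.09), CEM (-0.12) or DND41 (-0.14). AURKB, NEK2 and BUB1 had values of 0.14, 0.00 and -0.13 and did not pass. With the replicate letter or number of each line as a block BUB1 passed as lower (-0.13, adjusted p = 0.044, edgeR). NEK2, which separates centrosomes, passed without the first untreated libraries (0.14, adjusted p = 0.024).

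In the spindle checkpoint and APC/C group 1 of 6 members rose and 3 fell, or 2 and 3 without the first untreated libraries. PTTG1 fell to 0.67-fold, a log2 change of -0.58 ± 0.072 (adjusted p = 3.6e-08, edgeR). MAD2L1, the checkpoint protein MAD2, fell by 0.34 ± 0.055 (adjusted p = 5.3e-06), with a negative estimate in all 7 lines. BUB3, its partner at unattached kinetochores, fell by 0.28 ± 0.050 (adjusted p = 2.4e-05). CDC20 rose by 0.21 ± 0.068 (adjusted p = 0.013), a mean over lines that went in opposite directions. BUB1B, the checkpoint protein BUBR1, at 0.03 and UBE2C, the ubiquitin-conjugating enzyme of the APC/C, at 0.16 did not pass. With the replicate letter or number of each line as a block UBE2C passed as higher (0.17, adjusted p = 0.0023, edgeR). BUB1B rose by 0.19 ± 0.054 (adjusted p = 0.0041) once the first untreated libraries were left out. The near copies PTTG2 and PTTG3P reached at most 0.349 and 0.477 CPM, against 51 to 328 CPM for PTTG1.

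The centromere and kinetochore group had 3 of 7 members up and 1 down. CENPA rose 1.65-fold (0.72 ± 0.077, adjusted p = 1.3e-09, edgeR). NDC80, the microtubule-binding subunit of the kinetochore, rose by 0.34 ± 0.069 and BIRC5 (survivin), a subunit of the chromosomal passenger complex, by 0.29 ± 0.072. INCENP, the scaffold of the same complex, fell by 0.21 ± 0.076 (adjusted p = 0.029). That call was lost under 14 of 54 alternatives. The value was -0.09 (adjusted p = 0.36) without the first untreated libraries of 5 lines. The call was also lost on leaving out a single library, namely untreated A of Nalm6, SUPB15 or REH, 697 untreated 1, or L-asparaginase C of Nalm6, SUPB15, REH or DND41 (-0.16 to -0.19). NUF2, CENPE and CENPF had values of 0.01, -0.04 and -0.22 and did not pass. Without the first untreated libraries CENPE, a kinetochore motor, rose by 0.22 ± 0.051, and CENPF stood at 0.06.

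The 6 kinesins held 4 rises and 0 falls. KIF20A rose by 0.33 ± 0.061, and KIF14 and KIF4A by 0.29 ± 0.062 and 0.29 ± 0.063. These 3 act at the midzone and in cytokinesis. KIF2C, which shortens microtubules at centromeres, rose by 0.18 ± 0.057 (adjusted p = 0.0087). KIF11 and KIF23 stood at 0.02 and 0.03 and did not pass.

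Of the 7 genes of spindle assembly and cytokinesis, 1 rose and 2 fell. PRC1, which bundles midzone microtubules, rose by 0.32 ± 0.057 (adjusted p = 2.0e-05, edgeR). The spindle proteins NUSAP1 and DLGAP5 fell by 0.25 ± 0.083 and 0.23 ± 0.076, and both calls were lost without the first untreated libraries (-0.11 and -0.12) and when SUPB15 or DND41 was left out. That of DLGAP5 was also lost without CEM. TPX2, ECT2, ANLN and HMMR ranged from -0.07 to 0.12 and did not pass. Without the first untreated libraries TPX2, the activator of AURKA, ANLN (anillin) and ECT2 rose by 0.27, 0.26 and 0.13. With the replicate letter or number of each line as a block ECT2 passed as higher (0.12, adjusted p = 0.016, edgeR). Of the last 3 genes, the topoisomerase TOP2A, MKI67 and the transcription factor FOXM1 stood at -0.10, -0.11 and 0.05, and 0 of 3 passed. MKI67 turned direction without the first untreated libraries, at 0.25 ± 0.10 (adjusted p = 0.052).

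The level of CENPA in single libraries shows how far the rise was shared. In L-asparaginase A, B and C it stood at 57.1, 90.6 and 49.9 CPM in Nalm6, against 22.2, 29 and 24.6 CPM in untreated A, B and C. In RS411 it stood at 40.8, 54.8 and 49.9 CPM with L-asparaginase and at 18.7, 32.1 and 26.7 CPM untreated. In REH it stood at 80.7, 85 and 76.1 CPM with L-asparaginase and at 41.7, 48.3 and 49.9 CPM untreated. The groups did not overlap in these 3 lines, where CENPA was called higher. They did not overlap in SUPB15, 697 and DND41 either, where CENPA was not called in the main model of the line. The share of all genes without overlap was not computed. In SUPB15 the range was 45 to 53.8 CPM with L-asparaginase, against 23.2 to 41.6 CPM untreated. In 697 it was 41.5 to 49.8 CPM with L-asparaginase, against 17.2 to 28.6 CPM untreated, and in DND41 51.9 to 53.1, against 32.8 to 47.9 CPM. CEM was the exception: 62.3, 70.9 and 62.5 CPM with L-asparaginase overlapped 50.8, 67.5 and 57 CPM untreated.

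PTTG1 in single libraries showed the opposite picture in 4 lines. In SUPB15 it stood at 69.9, 79.3 and 80.3 CPM with L-asparaginase, against 176, 169 and 172 CPM untreated. In DND41 it stood at 68.9, 61.6 and 51 CPM with L-asparaginase, against 120, 146 and 138 CPM untreated. In CEM it stood at 92.5, 102 and 90.8 CPM with L-asparaginase, against 126, 168 and 168 CPM untreated. Every treated library of these lines lay below every untreated one, as in RS411. RS411 had 90.2, 118 and 110 CPM with L-asparaginase, against 161, 170 and 130 CPM untreated. The groups overlapped in Nalm6 (131 to 191 CPM with L-asparaginase, 121 to 142 untreated), in REH (152 to 185 and 154 to 200 CPM) and in 697 (115 to 175 and 152 to 328 CPM).

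**Figure D2:**
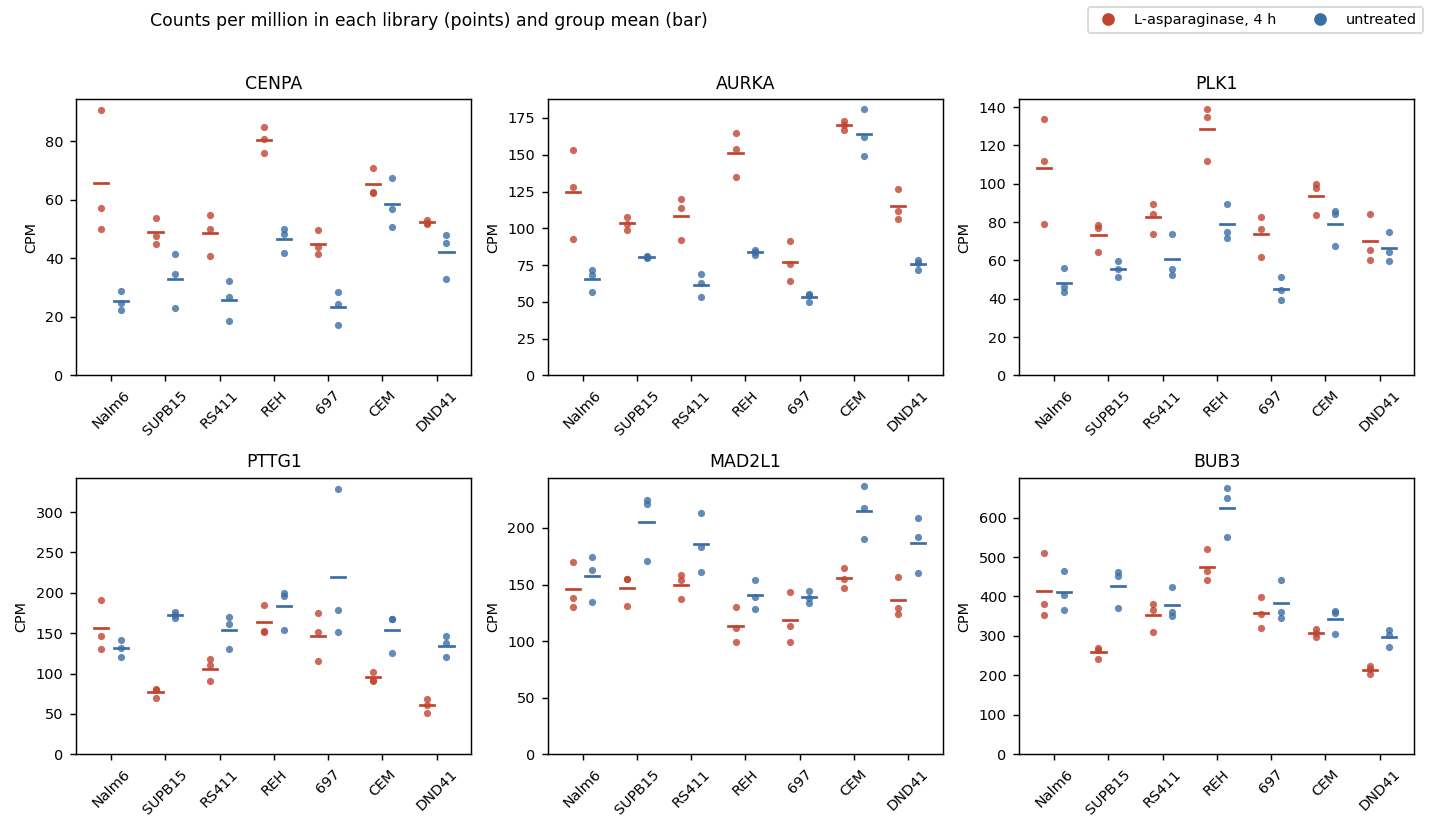
Level of the 3 genes with the largest mean rise (top) and the 3 with the largest mean fall (bottom) in each library, in CPM (y axis), for each line (x axis), with L-asparaginase left of untreated; points are libraries and bars group means. Treated CENPA lies above untreated in every line except CEM, where the groups overlap, and treated PTTG1 lies below untreated in SUPB15, RS411, CEM and DND41.

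Over the single lines, 34 of the 42 members were called in at least 1 line. The matching share of all genes was not computed, so the count is not read as particular to the members. In CEM alone 19.1% of all genes rose and 18% fell. AURKA rose in 5 lines and CCNF in 4, and PTTG1 fell in 4. CCNB2, NEK2, CDC20 and DLGAP5 rose in 1 line and fell in at least 1 other. CCNA2, AURKB, CENPE, CENPF, KIF11, KIF23, MKI67 and FOXM1 were called in no line. Several of these are called under other settings. Without untreated A, MKI67 (0.67), CENPE (0.59) and CENPF (0.51) were higher in Nalm6, CENPE in RS411 (0.35) and DND41 (0.33), and KIF11 in DND41 (0.38). With the replicate letter as a block, in the lines whose libraries were taken as paired, FOXM1 was higher in REH (0.22, adjusted p = 0.028) and CEM (0.22, adjusted p = 0.036) and CENPE in REH (0.31). In DND41 KIF11 was then higher (0.35) and CENPF (-0.40) and CCNA2 (-0.29) lower.

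**Figure D3:**
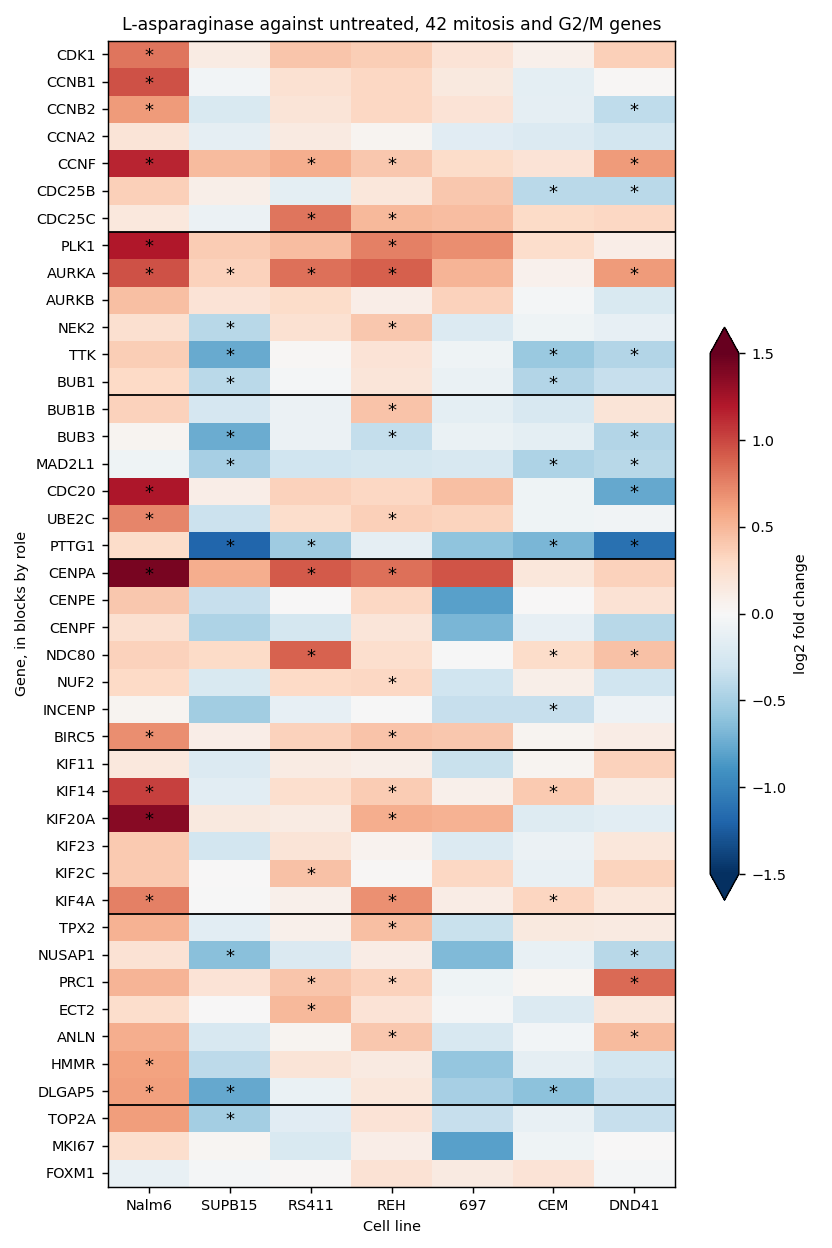
Log2 fold change of L-asparaginase over untreated (colour) for each of the 42 genes (rows, in blocks by role) in each line (columns), from the model of that line; stars mark adjusted p under 0.05. The column of Nalm6 is red almost throughout, SUPB15 carries most of its stars on blue, and 697 carries none.

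In Nalm6 15 members rose, against 9.14% of all genes tested in that line, and 0 fell, against 11.9% of all genes. At an unadjusted p under 0.05, 22 members were higher and 0 lower, and 40 of 42 estimates were positive, with a median of 0.40 on the log2 scale. CENPA rose by 1.42 ± 0.20 (adjusted p = 0.0014, edgeR), KIF20A by 1.37 ± 0.22 (adjusted p = 0.0022) and CDC20 by 1.21 ± 0.15 (adjusted p = 0.00073). KIF20A stood at 137, 166 and 94.2 CPM with L-asparaginase, against 64.8, 48.1 and 44.3 CPM untreated. CDC20 stood at 258, 315 and 208 CPM with L-asparaginase, against 107, 112 and 126 CPM untreated. Treated values of both lay above every untreated value. The others that rose were CDK1, CCNB1, CCNB2, CCNF, PLK1, AURKA, UBE2C, BIRC5, KIF14, KIF4A, HMMR and DLGAP5, by 0.60 to 1.20. Within the treated group the libraries differed: all 42 members lay above their group mean in L-asparaginase B and 0 in L-asparaginase C. Without L-asparaginase C the number that rose was 23, and without untreated A 21. Leaving out L-asparaginase B gave the lowest count, with 11 members called. Over all genes 1708 were called without L-asparaginase C, against 3152 in the main model.

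SUPB15 went the other way: 1 member rose (all genes 13.1%) and 9 fell (all genes 13.4%), with a median of -0.16. PTTG1 fell by 1.19 ± 0.11 (adjusted p = 0.00039, edgeR) and DLGAP5 by 0.77 ± 0.12 (adjusted p = 0.0027). The others that fell were the checkpoint genes TTK (-0.76), BUB3 (-0.75), MAD2L1 (-0.50) and BUB1 (-0.40), the spindle gene NUSAP1 (-0.63), TOP2A (-0.51) and NEK2 (-0.42). AURKA stood at 98.9, 108 and 103 CPM with L-asparaginase, against 80.4, 79.8 and 81.4 CPM untreated, and the groups did not overlap. It rose by 0.34 ± 0.10 (adjusted p = 0.042), a call lost under 8 of 12 alternatives, among them without untreated B or C or any of the treated libraries (adjusted p 0.062 to 0.21). With the replicate letter as a block AURKA was not called either (adjusted p = 0.056, edgeR). CENPA was then higher (0.58, adjusted p = 0.044) and INCENP lower (-0.52, adjusted p = 0.019), and every fall named above was kept. Without untreated A, 5 members rose and 11 fell, the added rises being CCNF, PLK1, CENPA and NDC80. Over all genes 6445 were then called, against 4001 in the main model, and the median of the members was -0.03. The count of 10 members was 6 without untreated C and 4, 5 and 4 without L-asparaginase A, B and C. All-gene calls fell too, to 2624, 2808, 1769 and 2267.

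In RS411 8 members rose (all genes 7.87%) and 1 fell (all genes 5.41%), with a median of 0.16. CENPA rose by 0.92 ± 0.19 (adjusted p = 0.017, edgeR), NDC80 by 0.88 ± 0.13 (adjusted p = 0.0055) and AURKA by 0.83 ± 0.13 (adjusted p = 0.0075). CDC25C, CCNF, ECT2, KIF2C and PRC1 rose by 0.42 to 0.80, and PTTG1 fell by 0.53 ± 0.14 (adjusted p = 0.046). NDC80 stood at 102, 132 and 130 CPM with L-asparaginase, against 62.6, 73.4 and 63.5 CPM untreated, without overlap. Single libraries decided several of these calls. Of 9 calls, 1 was left without L-asparaginase B or C, 5 without L-asparaginase A and 3 without untreated C. Without untreated A 16 were made. Over all genes 2171 were called in the main model, 501 and 392 without L-asparaginase B and C, and 1021 without L-asparaginase A. All-gene calls were 1218 without untreated C and 4640 without untreated A. The call of CENPA was lost without L-asparaginase B (0.82, adjusted p = 0.090) or C (0.91, adjusted p = 0.083) or untreated C (0.94, adjusted p = 0.055). That of AURKA was lost without L-asparaginase B (0.75, adjusted p = 0.054) or C (0.81, adjusted p = 0.052). The call of PTTG1 was lost without untreated B (-0.47) and without any 1 of the treated libraries A, B and C (-0.43, -0.61 and -0.54).

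REH had 16 rises (all genes 13.5%) and 1 fall (all genes 13.6%), with a median of 0.28 and 38 positive estimates of 42. AURKA rose by 0.90 ± 0.10 (adjusted p = 0.00023, edgeR), CENPA by 0.83 ± 0.10 (adjusted p = 3e-04) and PLK1 by 0.75 ± 0.13 (adjusted p = 0.0021). AURKA stood at 154, 165 and 135 CPM with L-asparaginase, against 83.8, 82 and 85 CPM untreated, so the treated libraries were all higher. Smaller rises of 0.31 to 0.68 were those of CCNF, CDC25C, NEK2, BUB1B, UBE2C, NUF2, BIRC5, KIF14, KIF20A, KIF4A, TPX2, PRC1 and ANLN. BUB3 stood at 441, 520 and 465 CPM with L-asparaginase, against 550, 676 and 649 CPM untreated, again without overlap. It fell by 0.36 ± 0.12 (adjusted p = 0.047), and the call was lost without untreated B or C or any of the treated libraries (adjusted p 0.071 to 0.19). With the replicate letter as a block, which pairs the libraries of this line, 26 members rose and 2 fell. BUB3 was among the falls, at adjusted p = 0.0028 (edgeR). Over all genes 6648 were then called, against 4224 in the main model. Without L-asparaginase B 5 members were called (2468 of all genes), and without untreated B or C 10 (2615 and 3312 of all genes).

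In 697 0 members were called in either direction, against 1.67% of all genes higher and 0.954% lower. At an unadjusted p under 0.05, 4 members were higher (CENPA, PLK1, AURKA and CDC25C) and 0 lower. The largest of these estimates were 0.94 ± 0.21 for CENPA (adjusted p = 0.067, edgeR) and 0.70 ± 0.18 for PLK1 (adjusted p = 0.093). DESeq2 called 2 members, CENPA and PLK1, both higher. Without untreated 1, 8 members rose: CENPA (0.78), KIF20A (0.74), PLK1 (0.63), AURKA (0.57), NEK2 (0.54), CDC25C (0.52), KIF14 (0.52) and KIF4A (0.45). Over all genes 3751 were then called, against 401 in the main model, so the 8 are not read as particular to the members. The median of the 42 members was 0.23 without that library and -0.06 with it. The estimate of NEK2 was -0.21 with that library.

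CEM, where T-lineage sums were 835.1 to 893.5 CPM with L-asparaginase and 804.4 to 1044 CPM untreated, had 3 rises (all genes 19.1%) and 7 falls (all genes 18%). KIF14 stood at 163, 180 and 159 CPM with L-asparaginase, against 123, 130 and 132 CPM untreated, every treated value above every untreated one. It rose by 0.39 ± 0.079 (adjusted p = 0.0022, edgeR), KIF4A by 0.32 ± 0.085 and NDC80 by 0.27 ± 0.088. PTTG1 fell by 0.69 ± 0.11 (adjusted p = 0.00038) and DLGAP5 by 0.62 ± 0.10 (adjusted p = 0.00063). TTK, MAD2L1, BUB1, CDC25B and INCENP fell by 0.35 to 0.56. The call of KIF4A was lost without L-asparaginase B (adjusted p = 0.072), and that of NDC80 without L-asparaginase B (adjusted p = 0.14) or C (0.070) or untreated A (0.070). AURKA, which rose in 5 other lines, was at 170, 173 and 167 CPM with L-asparaginase and at 162, 181 and 149 CPM untreated.

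DND41 had 5 rises (all genes 15.3%) and 8 falls (all genes 12%). PRC1 stood at 191, 200 and 162 CPM with L-asparaginase, against 97.4, 108 and 107 CPM untreated, without overlap. It rose by 0.85 ± 0.12 (adjusted p = 0.0014, edgeR), CCNF by 0.64 ± 0.13 (adjusted p = 0.0074) and AURKA by 0.64 ± 0.12 (adjusted p = 0.0048). ANLN and NDC80 rose by 0.47 and 0.44. PTTG1 fell by 1.12 ± 0.14 (adjusted p = 0.00094) and CDC20 by 0.77 ± 0.11 (adjusted p = 0.0017), and TTK, BUB3, MAD2L1, NUSAP1, CDC25B and CCNB2 fell by 0.38 to 0.44. With the replicate letter as a block, which pairs the libraries of this line too, 9 members rose and 14 fell. Over all genes 6065 were then called, against 4073 in the main model. The count of 13 members was 6 and 8 without untreated B and C, and 5 and 6 without L-asparaginase B and C. All-gene calls fell too, to 2745, 2608, 2195 and 1901.

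Whether the lines differed in their response was tested by the interaction of treatment with line in a model of all 42 libraries. It was past the threshold for 15 members, against 21.1% of all genes. The widest spread between lines was that of CDC20 (adjusted p = 4.5e-05, edgeR), followed by KIF20A (adjusted p = 3.9e-05), PTTG1 (adjusted p = 0.0011) and DLGAP5 (adjusted p = 0.0052). The others were CCNB1, CCNB2, PLK1, AURKA, TTK, BUB1, BUB3, CENPA, KIF14, PRC1 and TOP2A. CDC20 stood at 82.7, 74.5 and 78 CPM in treated DND41, against 126, 145 and 138 CPM untreated, while its treated values in Nalm6 were all above the untreated ones. Its log2 response in the joint model ran from -0.80 in DND41 to 1.18 in Nalm6. With the replicate block 24 members passed the interaction test, without the first untreated libraries 23, and without 697 untreated 1 alone 25. Calls over all genes grew as well, to 5667, 7549 and 5560, from 4435 in the main model. MAD2L1, with a response between -0.48 and -0.11 in the 7 lines, had adjusted p = 0.68 for the interaction.

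**Figure D4:**
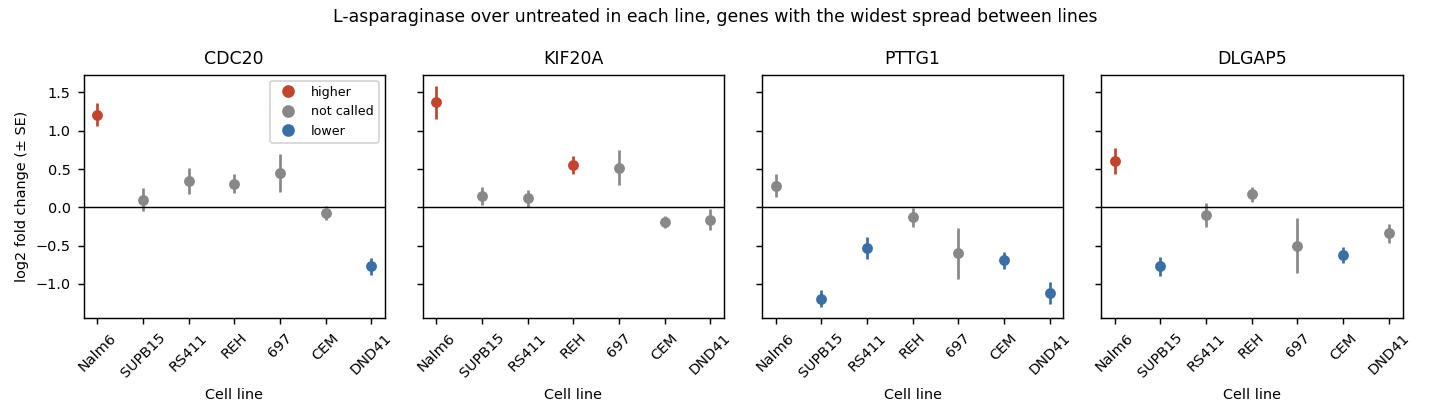
Log2 fold change of L-asparaginase over untreated (y axis, points with SE) in each line (x axis) for the 4 genes with the widest spread between lines, from the model of each line, coloured by the call. CDC20 lies at 1.21 in Nalm6 and -0.77 in DND41, and PTTG1 falls in SUPB15, RS411, CEM and DND41.

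Nalm6 stood out in direction. It had the highest response of the 7 lines for 31 of the 42 members, and its response exceeded the mean of the other 6 lines in 39. Matching shares of all genes were not computed, and the members varied together between libraries, so they are not separate observations. The median difference from the other lines was 0.45 in the members and -0.019 in all genes. The difference was past the threshold for 10 members, all higher, against 0.777% of all genes. These were KIF20A (1.18 ± 0.17), CDC20 (1.13 ± 0.19), PTTG1 (0.97 ± 0.21), DLGAP5, CCNB1, TOP2A, KIF14, PLK1, CCNF and CCNB2. The untreated libraries of Nalm6 enter both its response and its untreated level, which was lower than in the other lines for 16 members and higher for 0. Whether level and response are linked was not tested. In PTTG1 the difference was one of a fall elsewhere, since PTTG1 in Nalm6 itself was not called (0.28, adjusted p = 0.21). SUPB15 was the mirror image in sign, with 39 of 42 differences negative and a median of -0.27, against 0.022 for all genes. Past the threshold were 2 members, TTK (-0.64 ± 0.18) and BUB3 (-0.52 ± 0.14), against 1.3% of all genes lower.

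In CEM, AURKA responded less than in the other lines (-0.63 ± 0.15), the 1 member past the threshold, against 0.562% of all genes lower. DND41 had 1 member with a higher response, PRC1 (0.59 ± 0.16), against 3.17% of all genes, and 4 with a lower one, CDC20 (-1.17 ± 0.19), PTTG1 (-0.67 ± 0.21), KIF20A (-0.60 ± 0.17) and CCNB2 (-0.56 ± 0.16), against 2.91%. In RS411, REH and 697, 0 members differed from the other lines, against 1.12%, 2.4% and 9.49% of all genes in either direction. At an unadjusted p under 0.05 RS411 had 3 and REH 4 members higher and 0 lower, and 697 had 1 higher and 4 lower. Without the first untreated libraries Nalm6 had 14 members with a higher response, while SUPB15 had 7, CEM 4 and DND41 8 with a lower one. In 697, 2 had a higher one, TTK (0.56) and NEK2 (0.47). Matching shares of all genes were not computed for these counts.

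The untreated level differed between lines in 39 of 42 members, a share near the 87.7% of all genes; BUB1B, CENPE and HMMR did not pass. The widest range was that of UBE2C, with 184, 251 and 223 CPM in CEM, against 19.3, 21.6 and 15.3 CPM in 697, an 11.8-fold difference between the means of 220 ± 33.8 and 18.7 ± 3.19 CPM (SD, n = 3 each). UBE2C averaged 179 ± 33.4 CPM in SUPB15, 178 ± 37.0 in DND41, 127 ± 14.7 in REH, 97.4 ± 11.7 in Nalm6 and 40.1 ± 7.49 in RS411. CEM, SUPB15 and DND41 at the top of this order overlapped one another, while RS411 and 697 at the bottom did not.

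TTK followed with a 5.53-fold range, 270 ± 18.4 CPM in CEM against 48.8 CPM in 697, whose libraries had 71.6, 40.5 and 34.3 CPM, and CDC25B with a 4.57-fold range, 116 ± 7.36 CPM in CEM against 25.4 ± 3.46 CPM in Nalm6. DLGAP5 ranged 3.17-fold, 257 ± 34.5 CPM in CEM against 81.0 ± 6.03 CPM in SUPB15. CEM had the highest untreated mean in 26 members and 697 the lowest in 17, RS411 in 11 and Nalm6 in 7. CEM sat at the high end for genes of entry, kinases and spindle alike.

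Against the mean of the other 6 lines, untreated CEM was higher in 29 members (all genes 29.1%) and lower in 1, BUB3. Its largest differences were TTK (1.60 ± 0.11), CDC25B (1.54 ± 0.14) and UBE2C (1.43 ± 0.13) on the log2 scale, and all 7 genes of the cyclin, CDK1 and CDC25 group were higher. Untreated 697 was lower in 20 (all genes 19.4%), led by UBE2C (-2.72 ± 0.18), TTK (-1.28 ± 0.14) and CDC25B (-0.88 ± 0.17). It was higher in 5 (all genes 30.1%), CENPF, PTTG1, CENPE, KIF14 and DLGAP5, of which CENPF alone was higher when the first untreated libraries of 5 lines were left out together (0.41). Untreated Nalm6 was lower in 16 members (all genes 15%) and untreated RS411 in 18 (all genes 16.3%), and both were higher in 0. In Nalm6 CDC25B (-1.01 ± 0.17) and KIF20A (-0.89 ± 0.13) led, and in RS411 UBE2C (-1.43 ± 0.16) and ANLN (-1.15 ± 0.16).

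The other 3 lines were mixed. SUPB15 was higher in 12 (all genes 25.5%), among them UBE2C, CENPF, NEK2 and TOP2A, and lower in 4 (all genes 15.4%), DLGAP5 (-1.11 ± 0.17), PRC1 (-0.86 ± 0.12), CCNB1 (-0.62 ± 0.15) and KIF20A. REH was higher in 13 (all genes 26.8%), among them BUB3 and the cyclin B genes, and lower in 2 (all genes 12.8%), TOP2A (-0.84 ± 0.14) and MAD2L1 (-0.35 ± 0.11). DND41 was higher in 5 (all genes 24.8%), UBE2C, CDC25B, AURKB, TPX2 and TTK, and lower in 4 (all genes 19%), KIF23 (-0.69 ± 0.15), BUB3 (-0.50 ± 0.11), NUSAP1 and CCNB2. Without the first untreated libraries of 5 lines, REH was higher in 22 members and DND41 in 10. The shares of all genes were not computed in that setting.

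**Figure D5:**
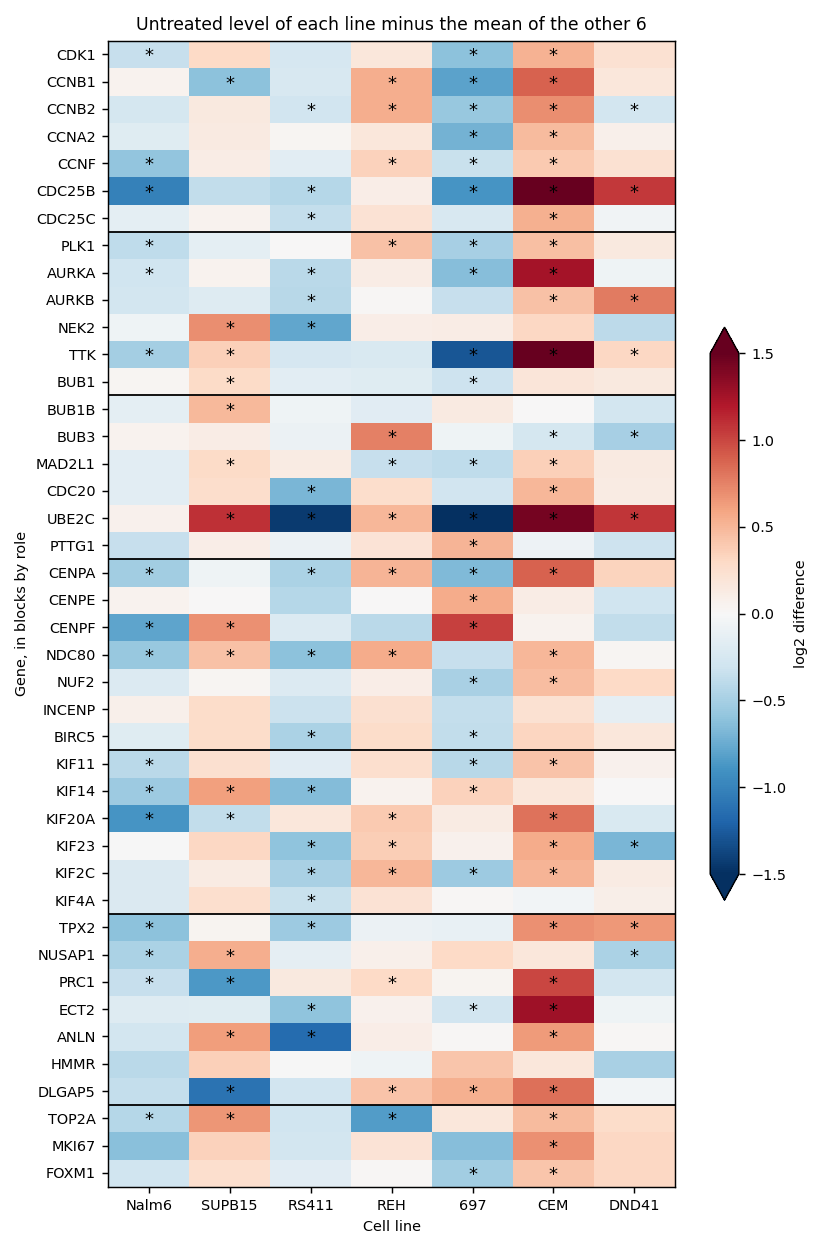
Untreated level of each line minus the mean of the other 6 lines on the log2 scale (colour), for each of the 42 genes (rows, in blocks by role); stars mark adjusted p under 0.05. CEM is red in 39 of 42 genes, and 697, RS411 and Nalm6 are mostly blue.

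The members varied together from library to library. After subtracting group means, the median pairwise correlation of the 42 genes over 42 libraries was 0.51 (861 pairs, middle 50% between 0.16 and 0.77). It was 0.25 for 35 DNA replication genes and 0.04 for 8511 genes with at least 3 on the log2 CPM scale. These are descriptions, since libraries share depth, small RNA share and culture. The median correlation of the log2 fold changes over the 7 lines was 0.55. Whole libraries were shifted: all 42 members lay above the group mean in Nalm6 L-asparaginase B, CEM L-asparaginase B and 697 L-asparaginase 1, and 0 did in L-asparaginase C of Nalm6 and REH. In 697 untreated 1 the median member lay 0.44 above its group mean, with 31 of 42 above.

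Genes outside the 42 that work in the same processes moved in both directions. In the mean of the lines 17.6% of all genes rose and 19.4% fell, for comparison with the counts of these lists. Of 14 further genes of mitotic entry 6 rose and 2 fell in the mean of the lines: GTSE1, which restrains p53 in G2, rose by 0.58 ± 0.062 and PKMYT1, an inhibitory kinase of CDK1, by 0.45 ± 0.13, while CKS1B, a CDK-binding protein, fell by 0.40 ± 0.066 and CDC25A by 0.15 ± 0.054. Of 29 other kinetochore genes 9 rose and 7 fell, with CENPM (0.55 ± 0.17) and SKA1 (0.46 ± 0.050) the largest rises and SPC24 (-0.51 ± 0.072), a partner of NDC80 in its complex, and CENPU (-0.37 ± 0.069) the largest falls. Of 22 other spindle, centriole and cytokinesis genes 5 rose and 4 fell. The kinesins KIF18B (0.63 ± 0.070) and KIF18A (0.49 ± 0.057) led the rises, and CIT (-0.37 ± 0.093) and the centriole kinase PLK4 (-0.36 ± 0.064) the falls.

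Of 17 APC/C subunits and regulators 5 rose, led by ANAPC10 (0.42 ± 0.057) and ANAPC2 (0.38 ± 0.13), and 3 fell, led by CDC26 (-0.30 ± 0.095) and ANAPC13 (-0.18 ± 0.046). Of 21 cohesin and condensin genes 4 rose, with STAG1 (0.43 ± 0.051) and NCAPH2 (0.41 ± 0.14) the largest, and 7 fell, with NCAPD3 (-0.38 ± 0.036) and NCAPG2 (-0.35 ± 0.051) the largest. Of 21 genes of DREAM, E2F and NF-Y, the regulators named above, 10 rose and 4 fell: LIN37 (0.80 ± 0.13) and E2F4 (0.53 ± 0.076), subunits of DREAM, rose most, and TFDP2 (-0.79 ± 0.057) and RBL2 (-0.45 ± 0.046), also of DREAM, fell most.

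Among 35 DNA replication genes, which act before mitosis in S phase, 4 rose and 14 fell, with a median of -0.13. CCNE1 and CCNE2, the cyclins E of S-phase entry, fell by 0.92 ± 0.068 and 0.71 ± 0.067, and MCM7 and ORC6 rose by 0.29 ± 0.070 and 0.25 ± 0.054. In the single lines, 0 of the 35 replication genes rose and 10 fell in Nalm6, 0 rose and 20 fell in REH, and 0 rose and 4 fell in 697. In CEM 9 rose and 5 fell, in DND41 10 and 2, in SUPB15 5 and 4, and in RS411 2 and 2. Of all genes, 9.14% rose and 11.9% fell in Nalm6, 13.5% and 13.6% in REH, and 1.67% and 0.954% in 697. In CEM these shares were 19.1% and 18%, in DND41 15.3% and 12%, in SUPB15 13.1% and 13.4%, and in RS411 7.87% and 5.41%. The counts in SUPB15 and RS411 lay near these shares of the 35 genes. Without the first untreated libraries 4 of the 35 rose and 17 fell in the mean, against 19.9% of all genes in each direction.

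Overlapping genes are a limit for some members: 14 of the 42 have exons that overlap a gene on the other strand in GENCODE 29, among them PLK1, CCNF, PRC1, KIF20A, KIF4A and MAD2L1. Whether counting used the strand is not given in the sources used here, and without strand the reads of such a pair cannot be told apart.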

How the data were processed

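The deposited tables held raw read counts per gene symbol, 1 table for each of the 7 lines, made by the authors on genome build hg19 per the submitters' processing notes; the sources used here name no aligner, counter or annotation (not given in the sources used here). Totals ran from 15.07 to 77.14 M per library (median 40.28 M), and their sizes set the counting precision; replicates of a group differed by more than sampling noise (chi-square per degree of freedom at least 14.96). Labels gave line and treatment, and file columns were matched to them by name; in 697 the replicate number matched too, while the letters A, B and C of the other lines stand in no label. Tables were joined on 50648 symbols, and 2 duplicated symbols, at most 0.000949% of a library, were left out.

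The counts were tested with edgeR 4.0.16 in R 4.3.3: TMM scaling, filterByExpr with a minimum count of 10, and the quasi-likelihood F test, with p-values adjusted by Benjamini-Hochberg over all genes tested and called under 0.05. Each line had its own model. A joint model of all 42 libraries, in which each of the 14 groups had a coefficient, supplied the mean response, the interaction, the untreated differences and each line against the mean of the other 6. CPM values use the joint TMM factors, and the fits were tested on simulated counts. Genes were named by rule: all 42 members by group; with fold and error, up to 8 called rises and 8 falls of the mean response, the 3 largest rises and 2 largest falls called in each line at a mean of 3 or more log2 CPM, and the 4 members with the widest range between lines in response and in untreated level; per further list, up to 2 called genes in each direction. Library values were given for the first of each, and other values were chosen after being seen.

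Alternatives were DESeq2 1.42.0, RLE size factors, no filter, the replicate block, leaving out each library or line, and leaving out the libraries set apart. Same-numbered libraries of a line were taken as paired where every correlation of their deviations exceeded 0.1, which held in SUPB15, RS411, REH, CEM and DND41 (lowest 0.101) and not in Nalm6 (0.0531) or 697 (-0.0749). The 0.101 was that of RS411, where the highest correlation between different letters was 0.238, so pairing in RS411 is uncertain. In Nalm6 the highest same-letter correlation was 0.461, against at most 0.155 between different letters, so its lack of pairing is uncertain too. The members and gene lists were chosen with earlier results of these data known. Nothing in the sources separates biological from technical spread between the 3 experiments beyond calling them independent. Promoter sequences are RefSeq windows on GRCh38.p14, and opposite-strand overlaps come from GENCODE 29.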

Additional observations from a re-analysis of the deposited data

Results flagged for a closer look

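The response to L-asparaginase differed between the 7 lines in 15 members by the interaction test of edgeR's joint model. CDC20 was flagged with adjusted p = 4.5e-05, for a log2 response of 1.18 in Nalm6 and -0.80 in DND41. KIF20A was flagged with adjusted p = 3.9e-05, for a response of 1.34 in Nalm6 and -0.20 in CEM. PTTG1 was flagged with adjusted p = 0.0011, for 0.25 in Nalm6 and -1.17 in SUPB15, and DLGAP5 with adjusted p = 0.0052, for 0.58 in Nalm6 and -0.75 in SUPB15.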

How the results depend on the processing

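With the replicate block the number of members called was 24 in Nalm6, whose libraries were not taken as paired. It was 28 in REH, 23 in DND41 and 24 for the interaction. The number stayed within 1.5 times of the reported count for the other 5 results the block was run on. Without a filter on low counts it was 6 in SUPB15, 5 in RS411 and 10 in REH. Without the first untreated library it was 16 in SUPB15, 16 in RS411, 8 in 697 and, over 5 lines, 23 for the interaction. Without the treated library set apart it was 4 in SUPB15 and 1 in RS411. DESeq2 called 2 members in 697. Over all genes the block called 3812, 6648, 6065 and 5667 in its listed results, against 3152, 4224, 4073 and 4435 in the main models. Without the first untreated library 6445, 4640, 3751 and 7549 genes were called, against 4001, 2171, 401 and 4435. The cause of these differences was not tested. Leaving out 1 library at a time, CEM had 7 to 14 calls, DND41 5 to 17, 697 0 to 8, REH 5 to 16, RS411 1 to 16, SUPB15 4 to 16 and Nalm6 11 to 23. It gave 11 to 25 for the interaction, 36 to 41 for untreated levels and, with lines left out too, 19 to 25 for the mean. RLE size factors moved no count by over 1.5 times. DESeq2 was not run for the joint results. Of the named genes' values under the alternatives, 1391 kept direction and side of the threshold, 57 kept direction only, and 0 reversed. Depth covers counting error only.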
